A study of Homo sapiens with 16 samples.

Results

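The BCL2 family decides whether a cell commits to death through its mitochondria. The effectors BAX and BAK1 form pores in the outer mitochondrial membrane, which release cytochrome c and lead to caspase activation. BH3-only proteins such as PUMA (encoded by BBC3), NOXA (PMAIP1), BID and BIM (BCL2L11) activate the effectors or neutralise their inhibitors, and the anti-apoptotic proteins BCL2, BCL-XL (BCL2L1), BCL-W (BCL2L2) and MCL1 hold both in check. BCL2 and MCL1 are well-known survival proteins of neuroblastoma cells. The 10 genes described here were the rows of the deposited count table whose Ensembl identifiers map to these symbols, out of 58787 identifiers in all. They comprised 6 pro-apoptotic and 4 anti-apoptotic genes, and each had enough counts to be tested.

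RNA was measured in IMR32, an established human neuroblastoma line with amplified MYCN, after transfection with 1 of 4 small interfering RNAs (siRNAs). A non-targeting siRNA (siNTC) served as control, and si45, si46 and si47 were each directed against TPX2, a spindle protein that activates the kinase AURKA. Each group had 4 biological replicates of the same line, the names of the table columns give 48 h for all of them, and the labels give no siRNA sequence or dose. A 3' end kit (QuantSeq) was used, so a level in CPM (read counts scaled to the size of the library) stands for transcripts and is not scaled by gene length.

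The 16 libraries held 5318159 to 7864343 counts each (median 5966582), and 14193 genes passed the filter on low counts. TPX2 was measured at 315, 339, 297 and 359 CPM in siNTC replicates 1 to 4. It was at 80.9, 79.4, 121 and 85.1 CPM under si45, at 90.9, 79.8, 93.8 and 62.2 CPM under si46, and at 68.7, 69.7, 76.3 and 71.3 CPM under si47. All 12 knockdown libraries lay below all 4 controls, and TPX2 fell by 2.01 on the log2 scale in the mean of the 3 siRNAs (SE 0.0886, edgeR adjusted p = 1.13e-15). All 10 adrenergic neuroblast markers (DBH, TH, MYCN and others) were above 20 counts, with a summed level of 5630 to 6143 CPM in siNTC, 5793 to 6734 CPM under si45, 6145 to 7166 CPM under si46 and 6292 to 7372 CPM under si47. The part of this shift in the values below was not tested. Of 9 mesenchymal or Schwann cell markers 8 never passed 20 counts in a library, COL1A1 being the exception and SOX10 being at 0, and neither did any of 5 leukocyte markers (CD3E and LYZ at 0, summed level up to 3.70 CPM). None of 8 interferon response genes passed 20 counts either (summed level 2.001 to 4.92 CPM, IFIT3 at 0).

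Among the 10 genes, 3 were higher in the 3 siRNAs on average than in siNTC and 0 were lower (edgeR adjusted p under 0.05, which 7.14% of all genes tested passed in either direction and 3.61% as higher). The 3 were BBC3, BAX and PMAIP1, and all are pro-apoptotic. A model with the replicate number as a block called 5 of the 10, adding MCL1 as higher and BCL2 as lower. That model called 1817 of the 14193 genes tested. BBC3 changed by far the most, by 2.64 on the log2 scale, against 0.68 for BAX and 0.53 for PMAIP1. The median log2 fold change of the 10 genes was 0.23, beside -0.00 over all genes tested. By siRNA, 1 of the 10 was higher under si45 (BBC3, where 1.34% of all genes passed and 1.01% were higher), 2 under si46 (BBC3 and PMAIP1, where 3.4% passed and 2.14% were higher) and 4 under si47 (BBC3, BAX, PMAIP1 and MCL1, where 9.74% passed and 4.91% were higher). These comparisons share the same 4 control libraries. In extracts of a whole culture, more RNA per cell and more cells with the RNA cannot be told apart.

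**Figure D1:**
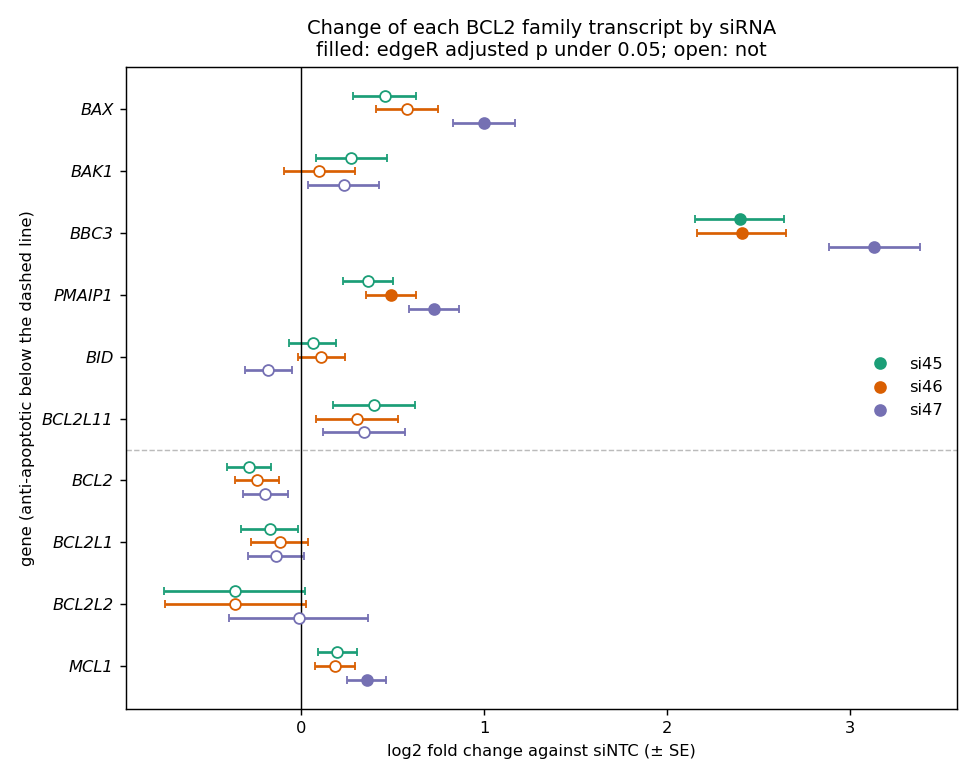
The plot of log2 fold changes by siRNA gives, for each of the 10 genes, the change of si45, si46 and si47 against siNTC (points) with its standard error (bars). Points are filled where the edgeR adjusted p was under 0.05, and BBC3 lies at 2.395 to 3.13, to the right of every other gene.

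BBC3 (ENSG00000105327) lies on the minus strand of chromosome 19, from 47220822 to 47232766 in GENCODE v29 on GRCh38, and encodes PUMA, a BH3-only protein that binds all the main anti-apoptotic members. Its level in siNTC replicates 1 to 4 was 21.2, 26.4, 24.8 and 26.7 CPM. It was 162, 135, 78.2 and 147 CPM under si45, 130, 145, 97.8 and 152 CPM under si46, and 239, 270, 154 and 207 CPM under si47. The lowest knockdown library was thus far above the highest control, and the 12 knockdown libraries and the 4 controls did not overlap, a pattern that 1.49% of all genes tested showed. The mean level was 5.26 times that of siNTC under si45, 5.304 times under si46 and 8.77 times under si47. The corresponding log2 fold changes were 2.395 (SE 0.245, edgeR adjusted p = 9.75e-05), 2.41 (SE 0.245, adjusted p = 7.31e-05) and 3.13 (SE 0.247, adjusted p = 2.73e-06). In the mean of the 3 siRNAs BBC3 ranked 41st of the 14193 genes by p and 78th by fold change (log2 fold change 2.64, SE 0.222, edgeR adjusted p = 6.91e-06). Replicate 3 was the lowest of its group under each of the 3 siRNAs, and TPX2 was highest in replicate 3 of the same 3 groups. In siNTC TPX2 was lowest in replicate 3, and a link between the levels of BBC3 and TPX2 within groups was not tested.

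**Figure D2:**
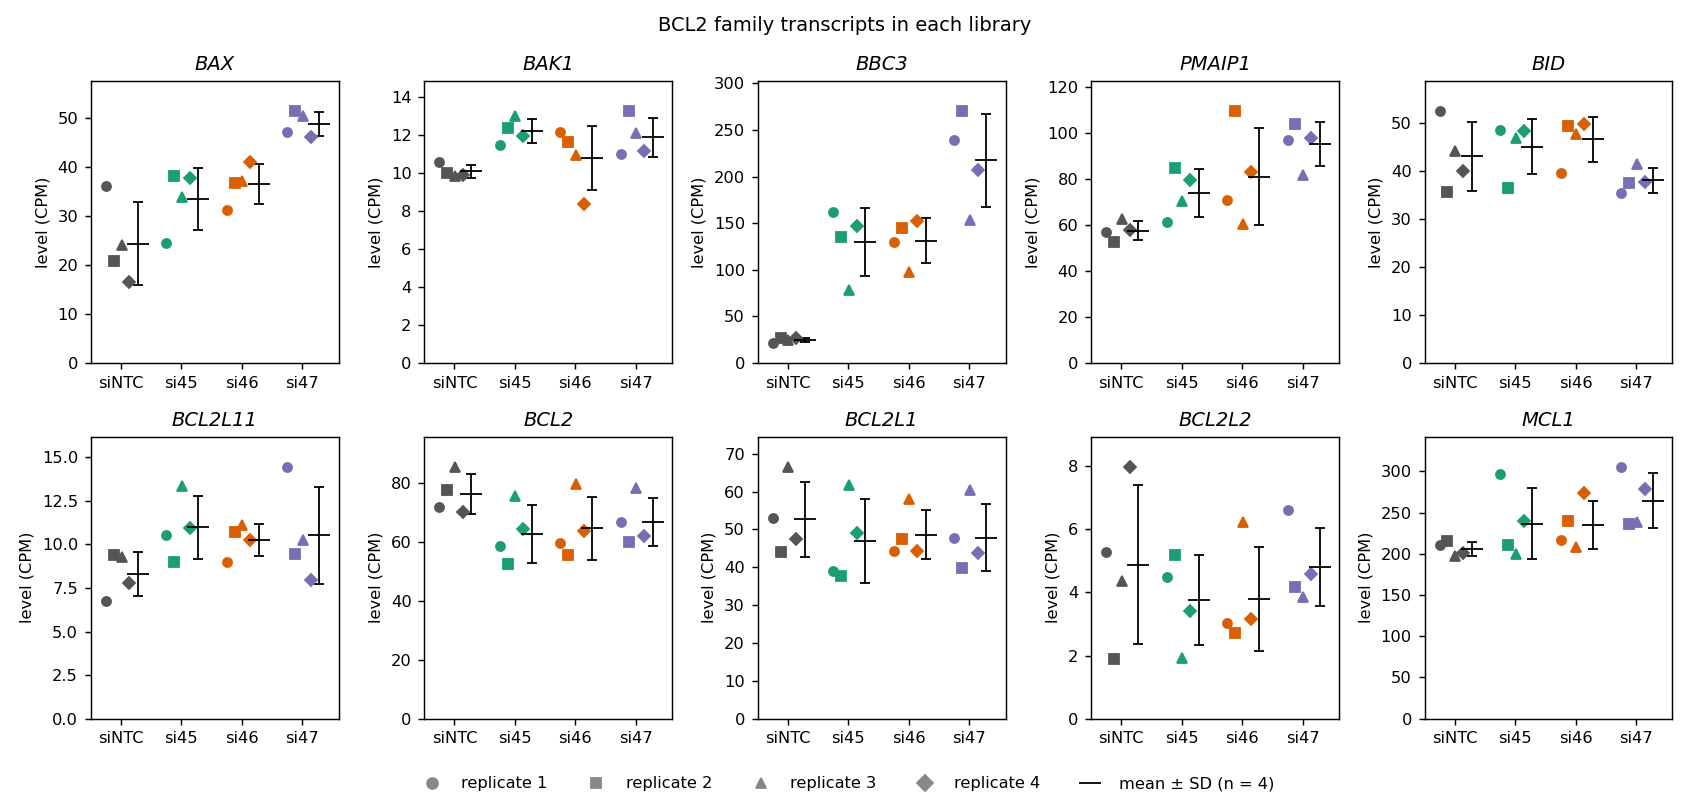
The plot of levels by library shows the CPM of the 10 genes in each of the 16 libraries (symbols mark the replicate number) with the mean and SD of each group of 4. BBC3 shows a gap between 26.7 CPM, the highest control, and 78.2 CPM, the lowest knockdown library, while the ranges of the control and knockdown libraries touch or overlap for the other 9 genes.

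BBC3 was higher under si47 than under the other siRNAs by a similar amount. The log2 difference was 0.74 against si45 (SE 0.217, 95% interval 0.26 to 1.21, edgeR adjusted p = 0.207) and 0.73 against si46 (SE 0.217, interval 0.25 to 1.20, adjusted p = 0.44). Neither passed the threshold with the 4 group means alone. Libraries of si45 and si47 with the same replicate number deviated together, and with the number as a block the si47 to si45 difference was 0.75 and passed (edgeR adjusted p = 2.05e-04). Same-numbered libraries of si46 and si47 correlated above 0.1 in 3 of 4 pairs. With the block the si47 to si46 difference was 0.72 and passed as well (edgeR adjusted p = 9.19e-04). Without the libraries numbered 3, an alternative chosen after seeing the data, the differences were 0.69 against si45 (edgeR adjusted p = 7.84e-04) and 0.74 against si46 (adjusted p = 4.86e-04). These libraries had the lowest BBC3 level of each knockdown group, and without them the SE was 0.108 in both. The choice thus rests on the values of BBC3 itself, and nothing is read from these 2 p-values. Between si45 and si46 the difference was 0.01, with an interval from -0.46 to 0.49.

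The effector BAX (ENSG00000087088) lies on the plus strand of chromosome 19, from 48954815 to 48961798. In siNTC replicates 1 to 4 it was at 36.1, 20.8, 24.0 and 16.5 CPM. Under si45 it was at 24.5, 38.1, 33.8 and 37.6 CPM, under si46 at 31.1, 36.7, 37.2 and 41.0 CPM, and under si47 at 47.2, 51.3, 50.4 and 46.1 CPM. Control replicate 1 stood above the other controls and reached into the si45 and si46 ranges, whereas all 4 si47 libraries lay above all controls (a pattern of 7.41% of all genes). Of the 12 knockdown libraries 9 were above every control. For this and later counts of libraries given without a share, the share of all genes was not computed. In the mean of the 3 siRNAs BAX rose by 0.68 on the log2 scale (SE 0.144, edgeR adjusted p = 0.00257).

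Taken by siRNA, BAX rose by 0.998 under si47, to 2.002 times the control level (SE 0.169, edgeR adjusted p = 1.57e-04). The change was 0.58 under si46 (SE 0.171, adjusted p = 0.0545) and 0.46 under si45 (SE 0.172, adjusted p = 0.25), neither of which passed. The si46 value sat at the threshold and passed in 7 of 25 alternatives, DESeq2 (adjusted p = 0.0363) and limma-voom (0.0494) among them. Control replicate 1 decided the si45 call, since without it the change was 0.71 (edgeR adjusted p = 0.0183), and it moved the si46 change to 0.83. The difference of si47 from si45 was 0.54 (95% interval 0.18 to 0.90, edgeR adjusted p = 0.165) and that from si46 was 0.42 (interval 0.06 to 0.78, adjusted p = 0.559). BAK1 (chromosome 6, 33572547 to 33580293, minus strand), the other effector, was far less abundant and did not pass in any comparison. BAK1 measured 10.6, 10.01, 9.83 and 9.89 CPM in siNTC, 11.5 to 13.004 CPM under si45, 8.38 to 12.2 CPM under si46 and 11.002 to 13.2 CPM under si47. Although 11 of 12 knockdown libraries were above every control, its change in the mean contrast was 0.20 (95% interval -0.15 to 0.55, edgeR adjusted p = 0.515), on 45 to 96 counts per library.

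The promoters of both genes on chromosome 19 hold the E-box CACGTG, the palindrome bound by MYC family factors, and the windows below are shown because MYCN is amplified in this line and because BAX stands out by its number of matches. RefSeq promoter windows of 300 bases (250 before to 50 after a start) on GRCh38.p14 were matched to 8 of the 10 genes, all except BCL2L2 and MCL1. The 8 genes have 13 windows, 5 of them for BID and 2 for BCL2L1. CACGTG, which reads the same on both strands, was found in 7.26% of 35116 such windows and in 4 of the 13, which belong to 3 genes. The BAX window has 4 matches, and only 5 of the 35116 windows have 4 or more. Distances are from RefSeq starts, at 48954875 for BAX and 47232667 for BBC3, which can differ from the GENCODE gene bounds given with each gene. The last 2 BAX sites and the BID site lie before a RefSeq start but within the GENCODE gene. The BID site is in 2 overlapping windows, 106 bases before the start at 17773983 and 47 bases before that at 17774042. Each line gives 24 bases, 5′ to 3′ on the gene's strand, with the E-box in capitals:
BAX, 138 bases before the RefSeq start (chr19:48954728-48954751, plus strand): ttggacagtCACGTGacgggacca
BAX, 93 bases before (chr19:48954773-48954796, plus strand): aggtgcggtCACGTGacccggcgg
BAX, 45 bases before (chr19:48954821-48954844, plus strand): cggggcggcCACGTGaaggacgca
BAX, 14 bases before (chr19:48954852-48954875, plus strand): cggggctctCACGTGacccgggcg
BBC3, 232 bases before (chr19:47232885-47232908, minus strand): gggagatttCACGTGagatataga
BID, 106 bases before (chr22:17774075-17774098, minus strand): tgtcctctcCACGTGgcctgggga

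The E-box is thus present in the windows of BBC3 and BAX, which rose, and of BID, which did not pass, and the window of PMAIP1, which rose, has no match. The GC box GGGCGG, searched on both strands, was in 15786 of the 35116 windows and in 9 of the 13, which belong to 6 of the 8 genes, BBC3 and BCL2 being without it. A match is a string of letters in 1 window, and the windows do not cover distal or intronic sites. Binding of MYCN to these sites was not measured, and a part of the matches in the changes was not tested.

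PMAIP1 (ENSG00000141682; chromosome 18, 59899948 to 59904306, plus strand) encodes NOXA, a BH3-only protein that binds MCL1. It was measured at 56.9, 52.7, 62.6 and 57.8 CPM in siNTC replicates 1 to 4, a narrow range. Under si45 it was at 61.2, 84.9, 70.4 and 79.6 CPM, under si46 at 70.8, 109, 60.6 and 83.1 CPM, and under si47 at 97.1, 104, 81.7 and 98.0 CPM. All si47 libraries (a pattern of 7.41% of all genes) and 10 of the 12 knockdown libraries were above every control, the exceptions being si45 replicate 1 and si46 replicate 3. PMAIP1 rose by 0.53 on the log2 scale on average over the siRNAs (SE 0.113, edgeR adjusted p = 0.00314), by 0.73 under si47 (SE 0.135, adjusted p = 5.25e-04) and by 0.49 under si46 (SE 0.135, adjusted p = 0.038). Its change under si45 was 0.36 (SE 0.136, edgeR adjusted p = 0.248). The si46 call was lost with limma-voom (adjusted p = 0.078) and without any 1 of the 4 control libraries, si46 replicate 2 or si46 replicate 4 (edgeR adjusted p = 0.0512 to 0.24). Without si46 replicate 2, the highest library of all 16, the si46 change was 0.31. The si47 to si45 difference was 0.36 (95% interval 0.07 to 0.65, edgeR adjusted p = 0.283), and it passed with the replicate number as a block (0.37, adjusted p = 0.0454).

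The remaining BH3-only genes did not pass in any comparison. BID (chromosome 22, 17734138 to 17774770, minus strand), which is cleaved by caspase 8 to become active, ranged from 35.7 to 52.4 CPM in siNTC, 36.5 to 48.6 CPM under si45, 39.6 to 49.7 CPM under si46 and 35.4 to 41.5 CPM under si47. Its log2 change in the mean contrast was -0.00 with a 95% interval from -0.22 to 0.22 (edgeR adjusted p = 0.999). BID was also the one pro-apoptotic gene with a value below 0 under si47, at -0.18 (SE 0.130, edgeR adjusted p = 0.441). BCL2L11 (chromosome 2, 111119378 to 111168447, plus strand) was scarce, with 42 to 92 counts per library and 6.73 to 9.38 CPM in siNTC against 7.96 to 14.5 CPM in the knockdown libraries. 9 of 12 knockdown libraries were above every control, but the interval of its change spanned 0 (0.35, interval -0.05 to 0.76, edgeR adjusted p = 0.284). Of the 4 BH3-only genes, 2 were thus higher in the mean contrast and 2 did not pass, where 3.61% of all genes tested were higher. Their median was 0.44, beside -0.00 over all genes tested.

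None of the 4 anti-apoptotic genes passed in the mean contrast (edgeR, and DESeq2 and limma-voom called 0), where 7.14% of all genes tested did. Their median change was -0.19. At an unadjusted edgeR p under 0.05 were 2, MCL1 and BCL2, which ranked 1458th and 1945th of the 14193 genes by p. With the replicate number as a block both passed (BCL2 -0.25, edgeR adjusted p = 0.0219, and MCL1 0.24, adjusted p = 0.0123). Under that block 1817 of the 14193 genes passed. MCL1 (chromosome 1, 150574551 to 150579738, minus strand), a short-lived survival protein that NOXA binds, was the most abundant of the 10 transcripts. MCL1 stood at 211, 216, 197 and 201 CPM in siNTC replicates 1 to 4. It was 297, 210.4, 199.7 and 240.2 CPM under si45, 217, 239.9, 209 and 274 CPM under si46, and 306, 236, 238 and 279 CPM under si47. All 4 si47 libraries (a pattern of 7.41% of all genes) and 9 of the 12 knockdown libraries were above the highest control. MCL1 rose by 0.36 under si47 (SE 0.108, edgeR adjusted p = 0.0293), while the changes of 0.20 under si45 (adjusted p = 0.502), 0.19 under si46 (0.447) and 0.25 in the mean (0.0891) did not pass. The si47 call was lost without siNTC replicate 1, 3 or 4 or si47 replicate 1 or 4 (edgeR adjusted p = 0.0569 to 0.125). The mean change passed without si45 replicate 3 (0.27, adjusted p = 0.0354).

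BCL2 (chromosome 18, 63123346 to 63320128, minus strand), the founding survival gene of the family, was at 72.0, 77.6, 85.5 and 70.3 CPM in siNTC replicates 1 to 4. Under si45 it was at 58.5, 52.4, 75.6 and 64.3 CPM, under si46 at 59.5, 55.5, 79.6 and 63.7 CPM, and under si47 at 66.6, 59.9, 78.1 and 62.0 CPM. The 9 knockdown libraries numbered 1, 2 and 4 were below every control and the 3 numbered 3 were not, and replicate 3 was the highest library for BCL2 in all 4 groups. The change in the mean contrast was -0.24 (95% interval -0.45 to -0.03, edgeR adjusted p = 0.142), and the 3 siRNAs gave -0.28, -0.24 and -0.19. With the replicate number as a block the mean change of BCL2 was -0.25 and passed (edgeR adjusted p = 0.0219), so its call depends on the model. BCL2L1, which encodes BCL-XL, was also highest in replicate 3 of every group, with 66.6, 61.7, 58.1 and 60.3 CPM in replicate 3 of siNTC, si45, si46 and si47 against 37.8 to 52.9 CPM in the other 12 libraries. Its change was -0.14 (interval -0.41 to 0.13, edgeR adjusted p = 0.584). BCL2L1 (chromosome 20, 31664452 to 31723989, minus strand) is the neighbour of TPX2 (31739271 to 31801805, plus strand). Their starts point away from each other with 15281 bases and no annotated gene between them.

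**Figure D3:**
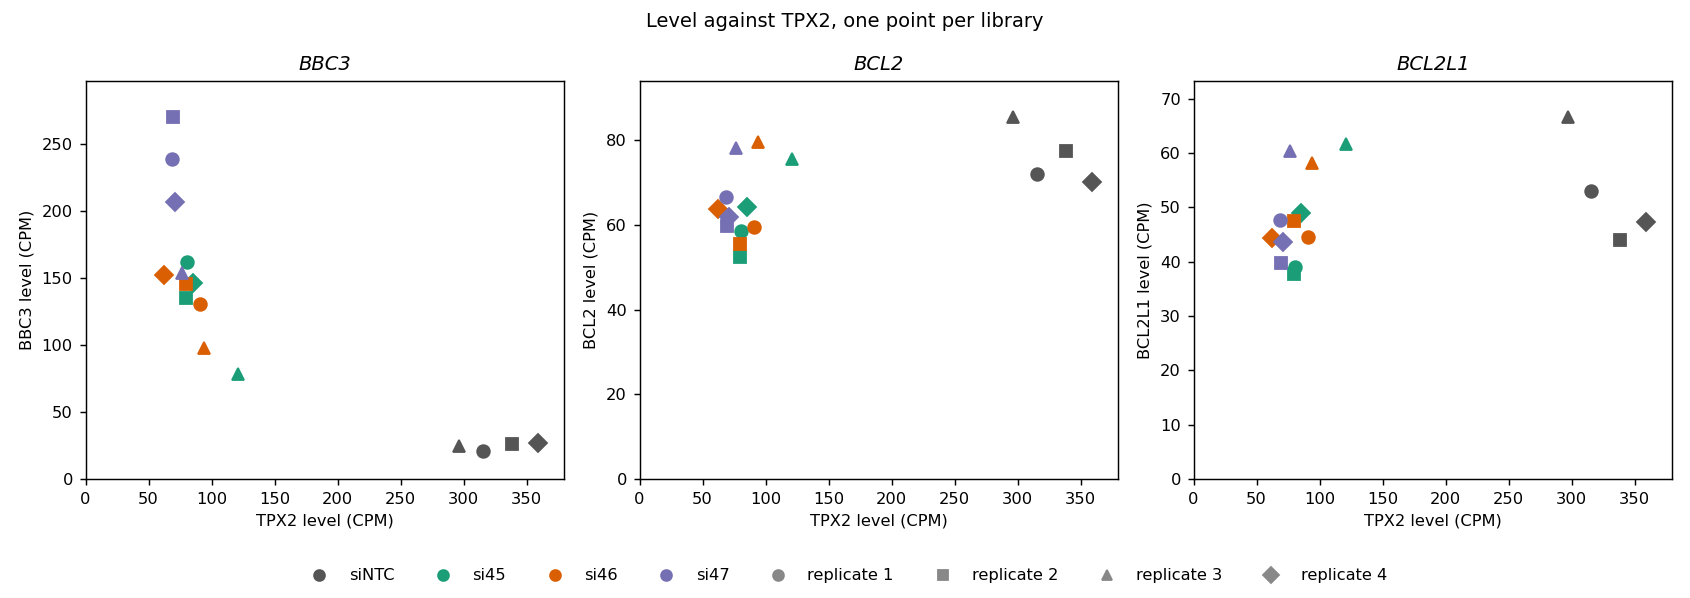
The plot of levels against TPX2 shows BBC3, BCL2 and BCL2L1 (vertical axes, CPM) against TPX2 (horizontal axes, CPM), with 1 point per library, colours for the siRNA and symbols for the replicate number. Knockdown libraries lie at 62.2 to 121 CPM of TPX2 and controls at 297 to 359 CPM, and the triangles (replicate 3) are the highest of each group for BCL2 and BCL2L1 and the lowest of each knockdown group for BBC3.

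BCL2L2 (chromosome 14, 23298790 to 23311759, plus strand) was the scarcest of the 10 genes, with 11 to 46 counts per library. Its level was 1.88 to 7.98 CPM in siNTC, 1.91 to 5.198 CPM under si45, 2.73 to 6.23 CPM under si46 and 3.86 to 6.60 CPM under si47, so that the groups overlapped throughout. The change in the mean contrast was -0.24 with an interval from -0.92 to 0.43 (edgeR adjusted p = 0.719). Exons of BCL2L2 overlap those of PPP1R3E on the other strand, which had 67 to 114 counts per library, and those of the readthrough gene BCL2L2-PABPN1, which had 0. Whether counting used strand is not given in the sources used here, so reads of BCL2L2 and PPP1R3E could be mixed. For MCL1 the overlapping gene ADAMTSL4-AS1 on the same strand had 1 to 34 counts, and for BAK1, BBC3, BCL2L11 and BCL2L1 the genes with overlapping exons had at most 6.

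Across the family the order of levels changed with the knockdown. In siNTC it ran MCL1 (206 CPM), BCL2 (76.3), PMAIP1 (57.5), BCL2L1 (52.7), BID (43.0), BBC3 (24.8), BAX (24.3), BAK1 (10.1), BCL2L11 (8.30) and BCL2L2 (4.87). PMAIP1 and BCL2L1, BCL2L1 and BID, BBC3 and BAX, and BCL2L11 and BCL2L2 had overlapping ranges there. Under each of the 3 siRNAs BBC3 was second to MCL1, at 130 ± 36.4 CPM (SD, n = 4) under si45, 131 ± 24.2 under si46 and 217 ± 49.7 under si47. The range of BBC3 overlapped that of MCL1 under si47 (265 ± 33.7 CPM), and that of PMAIP1, the next in order, under si45 and si46.

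Summed over genes, the reads of the 6 pro-apoptotic genes were 0.539, 0.457, 0.494 and 0.485 times those of the 4 anti-apoptotic genes in siNTC replicates 1 to 4. The ratio was 0.797, 1.03, 0.754 and 0.939 under si45, 0.905, 1.05, 0.752 and 0.896 under si46, and 1.04, 1.43, 0.918 and 1.05 under si47. Every knockdown library was above every control, and the ratio passed 1 in 1 library each of si45 and si46 and in 3 libraries of si47. Group means were 0.494 ± 0.034 (SD, n = 4) in siNTC, 0.880 ± 0.128 under si45, 0.901 ± 0.122 under si46 and 1.11 ± 0.221 under si47. The difference between the siRNAs on average and siNTC was 0.95 on the log2 scale, and 0.31 with BBC3 left out of the sum. A ratio of reads is no ratio of proteins, and no test was made on it because the genes were chosen with results known.

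BBC3 made up 4.89% ± 0.675 (SD, n = 4) of the reads of the 10 genes in siNTC, 19.6% ± 4.36 under si45, 19.6% ± 2.51 under si46 and 26.8% ± 4.81 under si47. The share of MCL1 was 40.7% in siNTC and 35.9%, 35.1% and 32.8% under si45, si46 and si47, and that of BCL2 was 15.0% against 9.65%, 9.77% and 8.35%. The share of PMAIP1 was 11.3% in siNTC and 11.4% to 12.03% under the siRNAs. Shares of a fixed whole move against each other, so a lower share of MCL1 stands beside a level that was not lower.

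**Figure D4:**
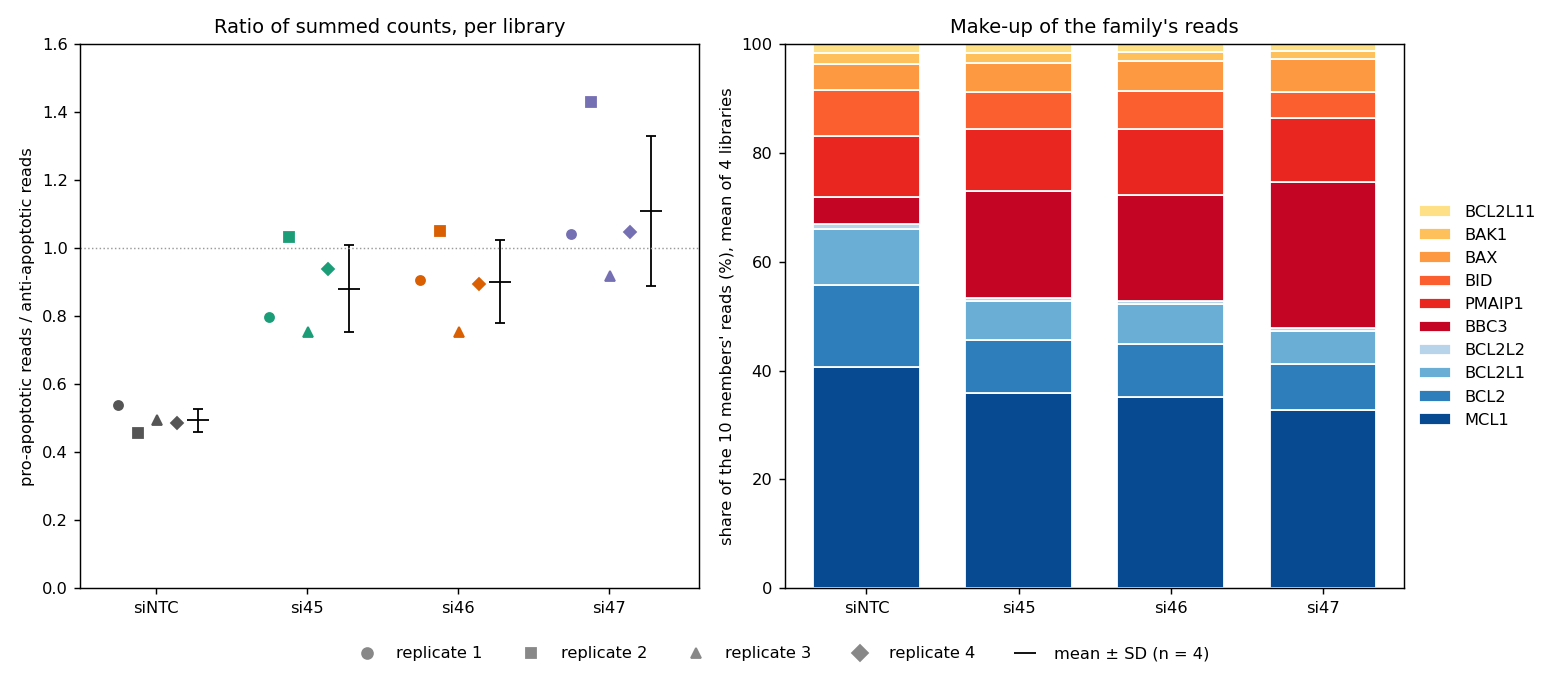
The plot of the ratio and make-up of the reads shows, on the left, pro-apoptotic over anti-apoptotic reads in each library with the group mean and SD (n = 4) and, on the right, the mean percentage of the 10 genes' reads that each gene took per group. Controls lie at 0.457 to 0.539 and knockdown libraries at 0.752 to 1.43, and the BBC3 segment goes from 4.89% to between 19.6% and 26.8%.

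The 3 called genes also differed in which other transcripts followed them over the 16 libraries (Pearson r of log2 CPM among 11774 genes with a mean count of at least 20). These values describe libraries that share the contrast of knockdown and control, so genes that differ between these groups correlate for that reason. BBC3 was most like ZMAT3 (r = 0.985), which encodes a zinc finger RNA-binding protein, EGR1 (0.980), an immediate early transcription factor, and MDM2 (0.977). PMAIP1 was most like GADD45A (0.923), GDF15 (0.909) and CYFIP2 (0.894). BAX was most like GATA3 (0.903), a transcription factor of adrenergic neuroblasts, ACBD6 (0.874) and FBXW7 (0.854). Among the 10 genes, BBC3 correlated with PMAIP1 at 0.80, with BAX at 0.73, with MCL1 at 0.68 and with BCL2 at -0.61.

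Genes around the family were examined in 4 further lists. Of 13 other BCL2 family genes 8 were tested and 0 passed in the mean contrast, where 7.14% of all genes tested did. DESeq2 and limma-voom called 0, and 1 gene was at an unadjusted edgeR p under 0.05. The median change was 0.06. The gene at the unadjusted cut was BMF, a BH3-only gene that was sequenced at 6 to 30 counts per library. It was higher than every control in 9 of 12 knockdown libraries (0.86, SE 0.408, edgeR adjusted p = 0.22). By p, BMF ranked 2693rd of the 14193 genes, so very many genes lay under that cut, and nothing is read from the count. BCL2A1, BCL2L10 and BCL2L14 had no count in any library, and BOK and BIK had at most 4.

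Of 12 genes of mitochondrial release and caspase activation 10 were tested. 0 passed in the mean contrast, where 7.14% of all genes tested did, and DESeq2 and limma-voom called 0. The median was -0.01. At an unadjusted edgeR p under 0.05 was 1, and nothing is read from this count either. CYCS, which encodes cytochrome c, and APAF1 and XIAP were among those that did not pass. VDAC1 was named after its values were seen. The outer membrane channel VDAC1 fell by 0.64 under si46 (SE 0.0855, edgeR adjusted p = 6.84e-06), at 113 to 128 CPM against 173 to 201 CPM in siNTC.

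Of 8 genes that control the turnover of MCL1 and related proteins 7 were tested and 1 was higher (3.61% of all genes tested were), with a median of -0.08. The list is too short for a count of 1 to be set against that share, and nothing is read from the count. It was FBXW7, which encodes the substrate receptor of a ubiquitin ligase that degrades MCL1, MYC family proteins and cyclin E. FBXW7 was at 119 to 149 CPM in siNTC, 160 to 181 CPM under si45, 179 to 207 CPM under si46 and 199.9 to 271 CPM under si47. All knockdown libraries were above all controls, as for 1.49% of all genes tested. It rose by 0.58 in the mean contrast (SE 0.0791, edgeR adjusted p = 5.14e-06) and by 0.38, 0.53 and 0.83 under si45, si46 and si47. The si45 call (adjusted p = 0.0272) was lost without siNTC replicate 2 or 4 or si45 replicate 1 or 2 (adjusted p = 0.0809 to 0.149). HUWE1, another ubiquitin ligase for MCL1, gave -0.22 (edgeR adjusted p = 0.0608).

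Of 10 regulators of BH3-only transcription 9 were tested, 2 were higher and 1 was lower (7.14% of all genes tested passed in either direction), with a median of 0.06. MDM2, a ubiquitin ligase, was at 92.3 to 104 CPM in siNTC, 152 to 233 CPM under si45, 187 to 263 CPM under si46 and 215 to 357 CPM under si47. MDM2 rose by 1.25 (SE 0.122, edgeR adjusted p = 9.52e-07). DDIT3, the stress-induced factor CHOP, was at 6.41 to 10.8 CPM in siNTC, 12.7 to 19.6 CPM under si45, 12.5 to 24.4 CPM under si46 and 18.1 to 42.5 CPM under si47, and rose by 1.17 in the mean contrast (SE 0.232, edgeR adjusted p = 0.00205). By siRNA it passed under si47 (1.70, edgeR adjusted p = 1.21e-04) and not under si45 (0.87, adjusted p = 0.138) or si46 (0.93, adjusted p = 0.0586). E2F1, a cell-cycle transcription factor, was at 248 to 270.1 CPM in siNTC, 175 to 242 CPM under si45, 151 to 212 CPM under si46 and 115 to 190.03 CPM under si47, and fell by 0.59 in the mean contrast (SE 0.103, edgeR adjusted p = 7.65e-04). It passed under si46 (-0.55, edgeR adjusted p = 0.0194) and si47 (-0.88, adjusted p = 9.78e-05) and not under si45 (-0.33, adjusted p = 0.297). For each of these 3 genes no knockdown library overlapped the controls, a pattern that 1.49% of all genes showed upward and 1.03% downward.

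**Figure D5:**
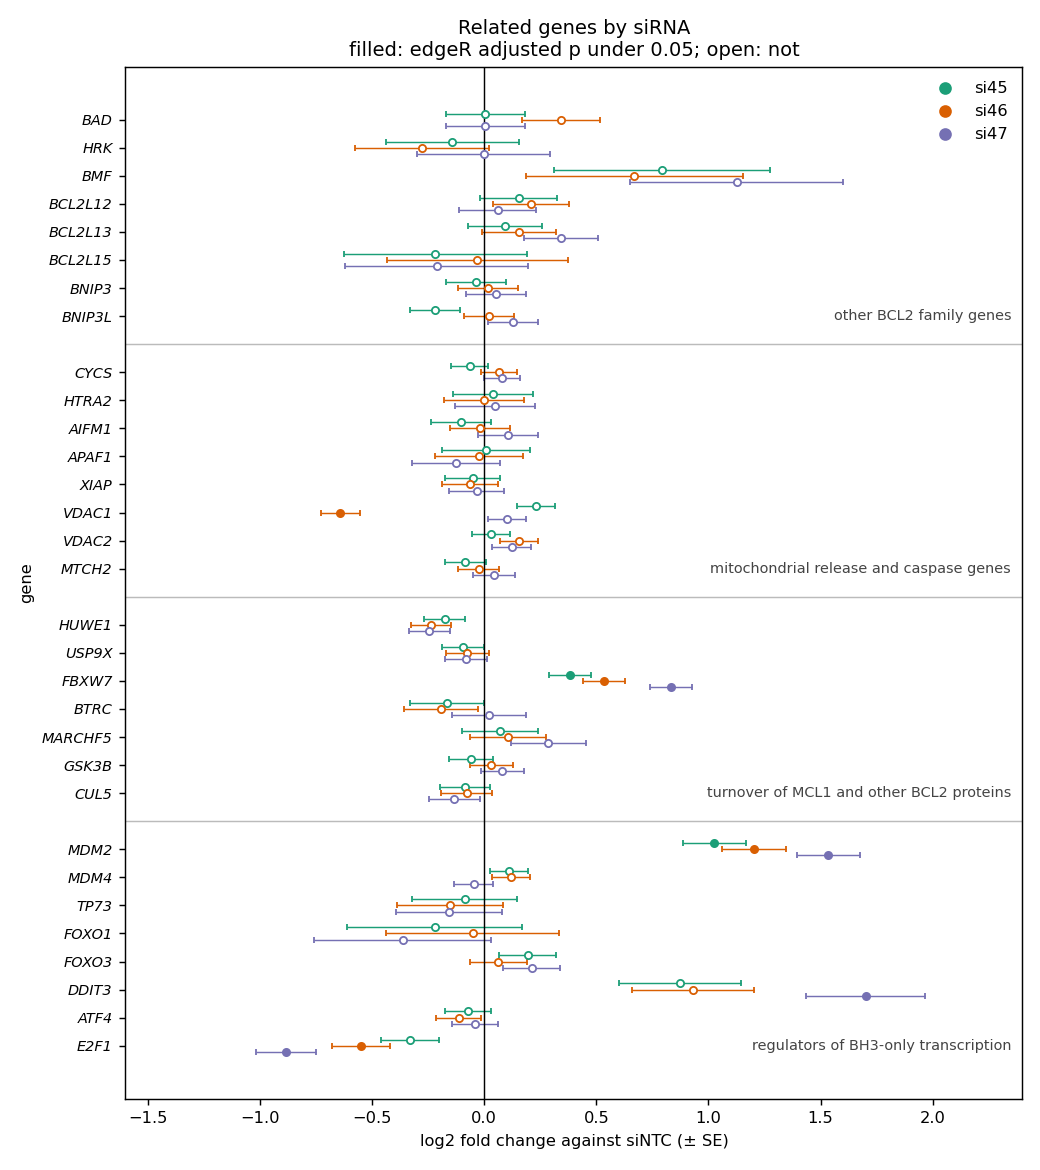
The plot of related genes gives the log2 fold change of si45, si46 and si47 against siNTC with its standard error for the tested genes of the 4 further lists that are reported here, filled where the edgeR adjusted p was under 0.05. FBXW7 and MDM2 are filled and above 0 for all 3 siRNAs, whereas VDAC1 is filled for si46 alone.

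Between siRNAs, 0 of the 10 genes passed in any of the 3 pairs (edgeR adjusted p under 0.05, which 0.0282% of all genes passed for si46 against si45, 0.169% for si47 against si45 and 0.0493% for si47 against si46). DESeq2 and limma-voom called 0. With the replicate number as a block 2 passed for si47 against si45 and 1 for si47 against si46, where 398 and 108 of the 14193 genes passed. At an unadjusted edgeR p under 0.05, for which the share of all genes was not computed, there were 0, 3 and 3. BBC3 and BAX were in the last 2 sets, with PMAIP1 against si45 and BID against si46. By p, BAX, BBC3 and PMAIP1 ranked 226th, 320th and 538th of the 14193 genes for si47 against si45. For si47 against si46, BBC3, BAX and BID ranked 165th, 404th and 734th. Between si46 and si45 the log2 differences of the 10 genes lay between -0.17 and 0.13, with intervals that reached from -0.86 to 0.87 for BCL2L2 and from -0.25 to 0.22 for MCL1.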

How the data were processed

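The authors deposited 1 table of raw read counts per Ensembl gene, whole numbers with no normalization, for 16 QuantSeq 3' end libraries. Per the submitters' processing notes, FastQC 0.11.7, STAR 2.7.2b, edgeR 3.36.0, limma 3.50.3 and GRCh38 were used. Their order and roles, the annotation, the use of strand and the handling of reads with several matches are not given in the sources used here. Overlapping genes can therefore share reads, PCR duplicates may have been counted, and precision covers counting error and the spread between these libraries only.

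Each column name gave the siRNA and the replicate of its sample. Counts were tested with edgeR 4.0.16 (R 4.3.3): filterByExpr (minimum count 10, minimum total 15), TMM scaling and 1 robust quasi-likelihood model of 4 group means over 16 libraries (12 residual degrees of freedom), with Benjamini-Hochberg adjustment over the 14193 genes tested, which held at least 99.6% of the counts. The threshold was 0.05. CPM used TMM library sizes, and log2 CPM for correlations a prior count of 2. SE is the size of the log2 fold change over the square root of F. Intervals are 95% from a t distribution with 12 degrees of freedom. The p-values use degrees of freedom moderated over genes, so interval and p need not match. For BMF in the mean contrast the unadjusted edgeR p was 0.0418 and the interval -0.03 to 1.75. The code was tested on simulated data. No pair of replicates agreed within sampling noise (chi-square per degree of freedom 4.58 to 10.6 in 24 pairs).

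Named were TPX2, the 10 genes, up to 4 called genes by lowest p in each of the lists (other BCL2 family genes, mitochondrial release and caspase genes, turnover of MCL1 and other BCL2 proteins, regulators of BH3-only transcription), and the 3 genes most correlated with each called member. Some genes of the lists are not reported here. The members and lists were chosen with earlier results of these data known. Deviations of same-numbered libraries from their group means correlated above 0.1 in all 4 pairs of si45 and si47 (r = 0.12 to 0.242) and in no other pair of groups throughout. In the other pairs of groups r was 0.0188 to 0.247, so the cut of 0.1 does not confine the pairing to si45 and si47. This pairing comes from the values, as the labels do not say what a number shares.

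Alternatives were DESeq2 1.42.0, limma-voom (limma 3.58.1), scaling by upper quartiles or RLE, other filters, only the groups compared, the replicate block, leaving out each library and, added after seeing the data, leaving out the libraries numbered 3. Positions and overlaps came from GENCODE 29, promoter windows from RefSeq (GRCh38.p14), and figures from matplotlib 3.10.9.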

Additional observations from a re-analysis of the deposited data

Results flagged for a closer look

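4 of 72 groups of 4 libraries had 1 library far from the others, where the gap to the nearest library, as a share of the group's range, was above Dixon's critical value. Chance flags about 1 in 20 groups, or 3.6 of 72. BID was at 36.54 CPM in si45 replicate 2, below 46.81 to 48.59 CPM in the other si45 libraries. BCL2L2 was at 6.228 CPM in si46 replicate 3, above 2.728 to 3.167 CPM in the others, on 15 to 37 counts. TPX2 was at 121 CPM in si45 replicate 3, above 79.35 to 85.12 CPM, and that library also had the lowest BBC3 level of the 12 knockdown libraries, at 78.2 CPM. DDIT3 was at 24.37 CPM in si46 replicate 2, above 12.46 to 14.31 CPM, and PMAIP1 was highest of all libraries there, at 109 CPM.

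2 genes of the lists differed between siRNAs in the test of the difference itself. VDAC1 was lower under si46 than under si45 by a log2 difference of -0.8707 (edgeR adjusted p = 8.51e-08) and higher under si47 than under si46 by 0.7428 (adjusted p = 4.62e-06), with 4 of 4 si46 libraries below all controls. FBXW7 was higher under si47 than under si45 by 0.4531 (edgeR adjusted p = 0.0242), and this call was lost in 6 of 25 alternatives (adjusted p = 0.0539 to 0.123).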

How the results depend on the processing

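The log2 changes of BBC3 (2.57 to 2.79), BAX (0.53 to 0.93) and PMAIP1 (0.47 to 0.64) in the mean contrast kept their direction and passed in all 24 alternatives, as did BBC3 under each siRNA in 25. The number of the 10 genes called was 3 to 4 with 1 library left out in the mean contrast, 1 to 2 for si45 (2 without siNTC replicate 1), 1 to 3 for si46 and 3 to 4 for si47, and 0 in each pair of siRNAs. Over all genes these settings called 629 to 1388 in the mean contrast, 97 to 406 for si45, 252 to 579 for si46 and 932 to 1664 for si47. In the pairs they called 4 to 7 for si46 against si45, 10 to 147 for si47 against si45 and 2 to 23 for si47 against si46. With the replicate block the mean contrast called 5 of the 10 (BCL2 at -0.25, adjusted p = 0.0219, and MCL1 at 0.24, 0.0123, in addition), si47 against si45 called 2 and si47 against si46 called 1 (BBC3, 0.72, adjusted p = 9.19e-04). Over all 14193 genes the block called 1817, 398 and 108 in these contrasts, beside 1014, 24 and 7 without it. Same-numbered libraries of the other pairs of groups correlated at 0.0188 to 0.247. Each si45 library was closest to its own number in si46 and in si47, each si46 library in si47, and each siNTC library in si45. The search was not made in the reverse direction. Without the libraries numbered 3, both si47 pairs called 1 (against si45, 77 of 14343 genes passed). The gene was BBC3, which was lowest in the libraries left out of each knockdown group, so nothing is read from these calls. With no filter on low counts si47 against si45 called 1 (BAX, adjusted p = 0.0354), where 166 of 28981 genes passed. MCL1 in the mean contrast also passed with no filter (0.25, adjusted p = 0.0283). E2F1 under si46 was lost in 6 alternatives (adjusted p = 0.0519 to 0.0777). The turnover list had 2 called genes in 4 alternatives. The ratio difference was 0.902 to 0.988 with 1 library left out, and 0.31 without BBC3.

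Changes near 0 turned direction without passing. BID in the mean contrast (-0.00) was 0.00436 with upper-quartile factors, 0.00457 with limma-voom, 0.00302 with no filter, 0.00835 with at least 10 counts in every library, 0.0014 with the block, and -0.0776 to 0.11 with 1 library left out. BCL2L2 in the mean contrast was -0.516 to 0.0975, BID under si45 -0.0106 to 0.176 and BCL2L1 under si46 -0.210 to 0.0133 with 1 library left out. BCL2L2 under si47 (-0.01) was 0.155 with limma-voom, 0.0160 with the block, 0.0302 without the libraries numbered 3, and -0.284 to 0.330 with 1 library left out. Why was not tested.

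Genes called over all genes ranged over the alternatives from 629 to 1817 (1014 as reported) in the mean contrast, 97 to 577 (190) for si45, 252 to 1073 (482) for si46, 932 to 2198 (1382) for si47, 4 to 33 (4) for si46 against si45, 10 to 398 (24) for si47 against si45 and 2 to 108 (7) for si47 against si46. Depth limits BCL2L2, BMF, BAK1 and BCL2L11, which had under 100 counts in every library.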
